A study of Mus musculus with 12 samples.

Results

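Loss of the energy-sensing kinase AMPK was examined in the L-GMP fraction of MLL-AF9 leukemia, a mouse model of acute myeloid leukemia that carries a fusion oncogene. L-GMP are leukemic granulocyte-macrophage progenitors, and the submitters equate them with the leukemia-initiating cells. The comparison holds 6 of the 12 arrays of the series, 3 from knockout and 3 from wild-type L-GMP, chosen by their labels alone. Mice given 10 Gy, a lethal dose, had received 50000 MLL-AF9-expressing bone marrow stem and progenitor cells, and marrow was taken when each recipient developed leukemia. Wild-type cells carried floxed AMPK alleles (AMPK fl/fl) and knockout cells carried the deleted alleles (AMPK Δ/Δ), in both cases of strain C57BL/6J and in wording that names neither the subunit genes deleted nor the Cre driver. So all 6 samples share the oncogene, the GFP marker, the irradiated host and the floxed or deleted background, and none is a normal progenitor. From each marrow 5000 cells were sorted as GFP+, lin-, c-kit+, CD16/32+ and CD34+, and biotin was put on their cDNA with NuGEN kits that amplify whole transcripts. The other 6 arrays hold whole leukemia, meaning all GFP+ cells, of the same genotypes and are used here only to set the L-GMP values beside a second population.

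AMPK is a heterotrimer of a catalytic alpha, a scaffolding beta and a nucleotide-binding gamma subunit. When energy is short, LKB1 phosphorylates it, and it then restrains fatty acid synthesis and the growth kinase complex mTORC1 while favouring glucose uptake, fatty acid oxidation and autophagy. It acts on proteins first, and on transcript levels through the factors and chromatin regulators it reaches. MLL-AF9 keeps myeloid progenitors self-renewing through genes such as the HOXA cluster and Meis1.

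Values below are log2 of the deposited intensity of the probe set that stands for a gene, and a difference is the knockout mean minus the wild-type mean of 3 arrays each. A difference of 1 is a 2-fold ratio of intensities, and compression near background makes the ratios of dim genes too small. Arrays "did not overlap" where all 3 knockout arrays lay on one side of all 3 wild-type arrays. Of 17760 genes tested, 0 passed limma at a Benjamini-Hochberg adjusted p under 0.05 in either direction (0% called), and the lowest adjusted p was 0.279, shared by 3 genes. At an unadjusted p under 0.05 limma listed 758 genes, 428 higher in the knockout (2.41%) and 330 lower (1.86%), against 888 that chance alone would list. The arrays did not overlap for 1035 genes that were higher (5.83%) and 652 that were lower (3.67%), or 9.5% in all. The median SE of a difference was 0.14 and the median half-width of its 95% interval 0.34, so differences well under that size were not detectable for most genes with 3 arrays a group. Over all genes the median difference was 0.02, and 54.8% of genes had the higher mean in the knockout. With 3 arrays against 3 the smallest exact permutation p (two-sided) for a gene is 0.1, and the labels do not say that replicates came from separate mice, so the spread may be technical in part. What follows therefore describes measured differences, none of which passed the test over all genes.

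The 6 arrays correlated with each other at 0.933 to 0.976, and 3 of them stood apart through known groups of genes. The first principal component held 34.2% of the variance, and on it knockout array 2 lay at 35.4 and the other 5 between -25.3 and 13, and that array had the highest values of eosinophil and mast cell genes, with a list mean of 6.90 against 5.56 to 5.93. Knockout array 3 had a list mean of 6.61 for G2/M genes, against 7.50 to 8.18. Wild-type array 2 had a list mean of 7.65 for interferon response genes, against 5.69 to 6.15, and of 6.40 for immediate early genes, against 6.97 to 7.54. The eosinophil, G2/M, interferon and immediate early lists are given below with and without these arrays.

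Prkaa1, which encodes the catalytic alpha 1 subunit, measured 7.31, 6.83 and 6.87 in knockout arrays 1 to 3 and 8.33, 7.99 and 8.12 in wild-type arrays 1 to 3. The groups did not overlap, and the lowest wild-type array was 0.69 above the highest knockout array. The difference was -1.15 (SE 0.17, 95% interval -1.54 to -0.75), or 0.452-fold, at a limma adjusted p of 0.638. The knockout arrays still measured well above the dim limit of 4.71, and the labels do not say whether this probe set lies inside the deleted part of the gene. Prkaa2, encoding the alpha 2 subunit, lay near background in both genotypes, at 4.86, 4.88 and 4.83 in the knockout and 4.79, 4.80 and 5.05 in the wild type. The 5 beta and gamma subunit genes differed by -0.10 to 0.22, and their arrays overlapped. Among the neighbours of the catalytic subunit genes, 5 on each side of either gene, 17 of 20 were tested, and Usp24, a deubiquitinase gene close to Prkaa2, stood out. It measured 7.79, 8.15 and 7.92 in the knockout and 7.32, 7.32 and 7.33 in wild-type arrays, which differ by 0.63 on average (SE 0.12, limma adjusted p = 0.781). C8a, a complement gene, was the other neighbour that was higher without overlap, by 0.11, and 0 were lower without overlap. These counts are out of the 17 tested, beside 5.83% of all genes higher and 3.67% lower without overlap.

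The genes of the sorting gate were present in every array. Cd34 measured 9.45 to 10.05, Fcgr3 8.64 to 9.19 and Fcgr2b 7.06 to 7.66 over the 6 arrays, the last 2 encoding CD16/32 receptors, and their genotype differences were -0.09, 0.07 and -0.05. Kit, the stem cell factor receptor gene, measured 8.88, 9.40 and 7.65 in the knockout and 8.18, 7.36 and 7.14 in the wild type, so knockout array 3 lay below wild-type array 1 and the groups overlapped (1.08, SE 0.48). Of 10 lineage antigen genes, 8 were matched. The T cell genes Cd3e, Cd4, Cd8a and Cd5 lay between 4.67 and 5.59, near the dim limit of 4.71, and Ly6g and Il7r were below it. Itgam, which encodes the myeloid lineage antigen CD11b, was well above it at 8.76, 6.44 and 8.25 in the knockout and 8.94, 7.32 and 8.61 in the wild type. So was Ptprc, at 9.70, 8.96 and 9.54 in the knockout and 9.47, 9.49 and 9.57 in the wild type. Xist, the RNA of X inactivation, measured 5.19, 5.95 and 4.83 in the knockout and 4.66, 4.62 and 4.59 in the wild type. It was higher without overlap (0.70, SE 0.27). The Y-linked gene Eif2s3y lay at 7.81 to 8.35 in all 6 arrays and was lower in the knockout, only just without overlap (-0.22, SE 0.12). The Y-linked genes Kdm5d and Uty overlapped. What these differences stem from was not tested.

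The genes with the largest lower values in knockout L-GMP were led by Stag3, which encodes a cohesin subunit used in meiosis, and by 1700080G11Rik, an uncharacterised long noncoding RNA. Stag3 measured 5.79, 5.47 and 6.14 in the knockout arrays and 8.56, 9.22 and 7.95 in the wild-type arrays, so the means differed by -2.77 (SE 0.33, 6.84-fold lower, limma adjusted p = 0.313). 1700080G11Rik measured 5.42, 4.63 and 4.43 in the knockout arrays and 7.17, 7.66 and 7.66 in the wild-type arrays, so the means differed by -2.67 (SE 0.28, 6.37-fold lower, limma adjusted p = 0.279). In both genes the gap between the groups was wider than the range of either group. The knockout values of 1700080G11Rik in arrays 2 and 3 lay under the dim limit of 4.71, so its ratio may be larger than measured. With the spread taken from all 12 arrays of the series it was the 1 gene that passed (limma adjusted p = 0.0312), and it passed with same-numbered arrays of both populations as a random block (limma adjusted p = 0.03).

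The 250 bases before the annotated start of each of these genes are shown because both were far lower in the knockout and both windows hold the letters CACGTG, the E-box bound by factors such as MYC, USF and TFEB, written in capitals. The sequences are from RefSeq (GRCm38.p6), 5′ to 3′ on the plus strand, Stag3 at chr5:138280259-138280508 and 1700080G11Rik at chr4:127474591-127474840.
Stag3: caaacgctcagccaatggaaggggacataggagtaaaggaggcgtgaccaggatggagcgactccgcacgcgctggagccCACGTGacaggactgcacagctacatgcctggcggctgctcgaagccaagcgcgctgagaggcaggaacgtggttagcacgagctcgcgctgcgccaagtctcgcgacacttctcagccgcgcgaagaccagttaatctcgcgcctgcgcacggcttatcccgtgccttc
1700080G11Rik: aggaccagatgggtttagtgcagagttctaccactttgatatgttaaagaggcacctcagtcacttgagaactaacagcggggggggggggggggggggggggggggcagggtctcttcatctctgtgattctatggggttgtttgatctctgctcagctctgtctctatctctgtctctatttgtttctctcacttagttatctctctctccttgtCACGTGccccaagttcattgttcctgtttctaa
The motif starts 170 bases before the start of Stag3 and 33 bases before that of 1700080G11Rik. The windows differ in their CG content, with 26 CG pairs in Stag3 and 2 in 1700080G11Rik. CACGTG, which reads the same on both strands, was found in 2 of the 11 windows matched among the 12 genes of largest lower value (18.2%) and in 0 of the 8 matched among the 12 of largest higher value, against 8.75% of the 13767 tested genes with a window. The cyclic AMP response motif TGACGTCA, searched on both strands, was found in 0 of either set and in 2.56% of all. The AP-1 motif TGACTCA, searched on both strands, was found in 0 of the 11 and in 2 of the 8 windows, those of Fgl2 and Nedd4, against 4.46% of all. These are matches of letters and no measurement of binding.

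Among the other genes of largest lower value, Dpep2, a membrane dipeptidase that cleaves leukotrienes, measured 6.70, 6.22 and 6.81 in the knockout and 8.23, 8.14 and 8.01 in the wild type (-1.55, SE 0.17, limma adjusted p = 0.286), with a range of only 0.22 among the wild-type arrays, and its other probe set differed by -1.17. Zc3h12c, an endoribonuclease of the Regnase family, measured 6.55, 6.99 and 5.05 against 8.11, 8.69 and 7.70 (-1.97, SE 0.52). Dennd5b, which encodes a DENN domain protein, measured 5.08, 4.58 and 4.69 against 6.47, 8.07 and 6.16 (-2.12, SE 0.49), and its other probe set differed by -1.78. The wild-type spread of Dennd5b came from array 2, and without that array its difference was -1.53. Milr1, an inhibitory receptor of mast cells and other myeloid cells, differed by -1.36. The serine carboxypeptidase gene Scpep1 was not among the 12 of largest lower value but among the 5 of lowest p on this side. It differed by -1.01 (6.35, 6.79 and 6.44 against 7.41, 7.51 and 7.69).

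The tropomyosin gene Tpm4 measured 6.91, 6.90 and 6.41 in the knockout and 7.84, 7.95 and 8.58 in the wild type (-1.39, SE 0.24), with its other probe set at -0.87. The focal adhesion gene Tns1 measured 6.17, 6.0 and 6.60 against 7.23, 7.44 and 7.55 (-1.15, SE 0.18). Cgnl1, which encodes a junction protein, differed by -1.45, Bmpr2, the type II receptor of bone morphogenetic proteins, by -1.14, and Iqcg by -1.11. All 12 genes of largest lower value, Prkaa1 among them, lay without overlap, a condition of how they were chosen, and their limma adjusted p ran from 0.279 to 0.994.

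**Figure D1:**
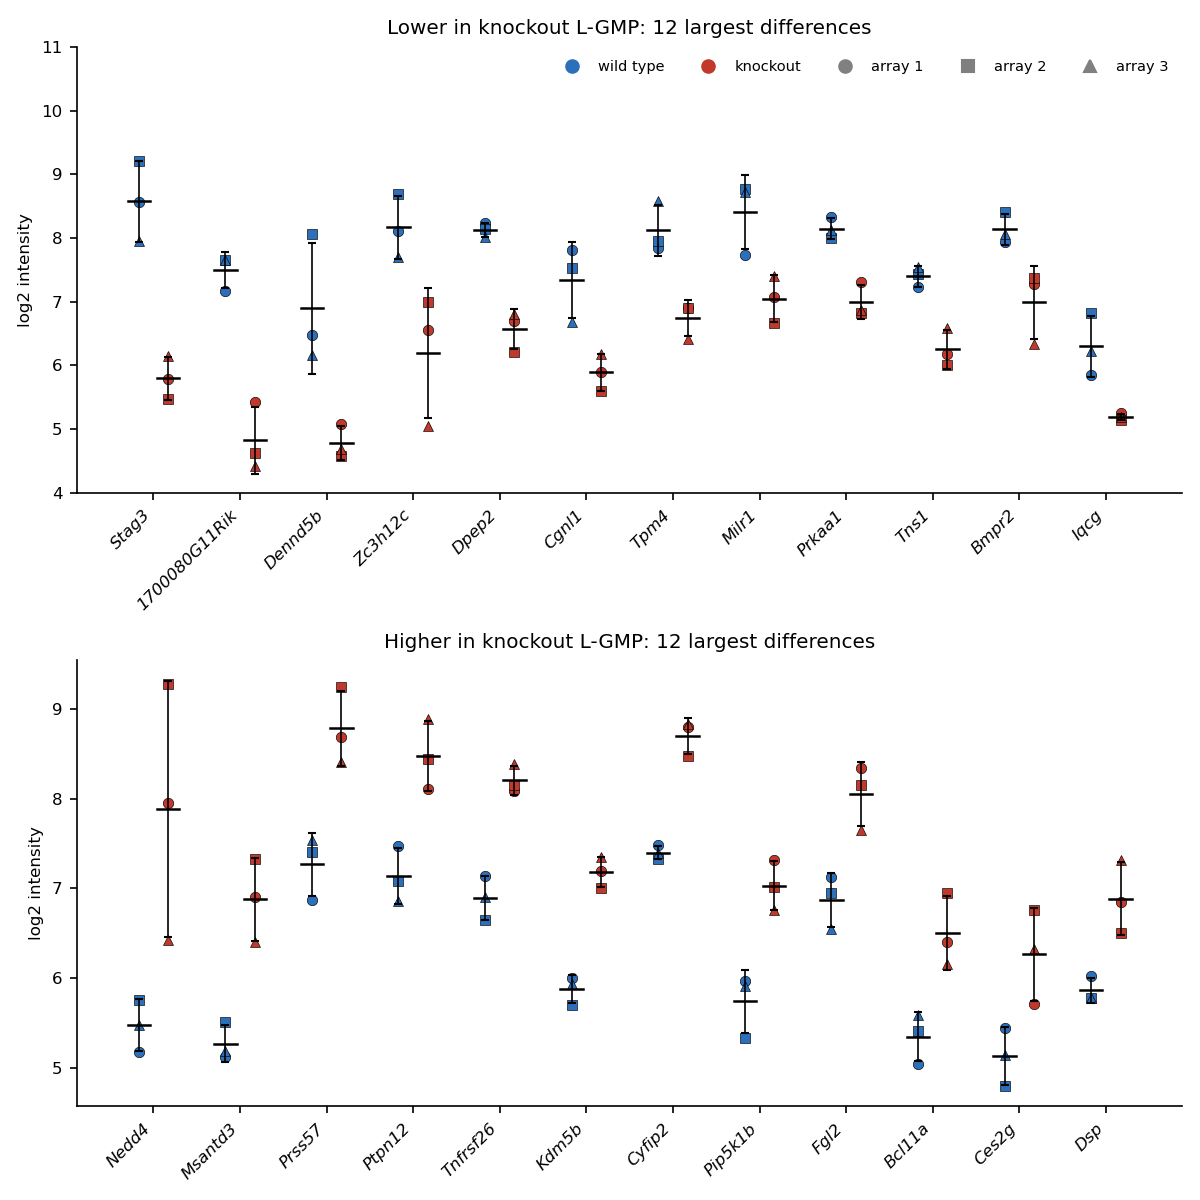
Log2 intensity of the 12 genes with the largest lower and the 12 with the largest higher values in knockout L-GMP, by array; symbols are single arrays, the long bars group means and the error bars 1 SD of 3 arrays. Stag3 lies at 7.95 or above in the wild type and at 6.14 or below in the knockout, Cyfip2 at 7.48 or below in the wild type and at 8.47 or above in the knockout.

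Among the 12 genes of largest higher value, Kdm5b and Cyfip2 had the smallest SE. Kdm5b, a demethylase of histone H3 lysine 4, measured 7.19, 7.01 and 7.35 in the knockout and 6.0, 5.70 and 5.94 in wild-type arrays (1.30, SE 0.13, limma adjusted p = 0.279). Cyfip2, a component of the WAVE complex that drives actin branching, measured 8.79, 8.47 and 8.83 against 7.48, 7.33 and 7.39, a difference of 1.30 (SE 0.13, limma adjusted p = 0.279). These are ratios of 2.47-fold and 2.46-fold. Tnfrsf26, a decoy receptor of the tumor necrosis factor receptor family, measured 8.08, 8.15 and 8.39 against 7.14, 6.64 and 6.90 (1.31, SE 0.16, limma adjusted p = 0.313). In this family 17 of 23 tested members had the higher mean in the knockout, and the median was 0.14. Tnfrsf26, already among the leading genes, Cd27 and Ltbr were higher without overlap, or 13% against 5.83% of all genes.

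Nedd4, a ubiquitin ligase, had the largest higher value and also the widest spread, at 7.95, 9.28 and 6.43 in the knockout and 5.19, 5.76 and 5.48 in the wild type (2.41, SE 0.66). Its value in knockout array 2 was the highest, and without that array the difference was 1.71. Msantd3, which encodes a protein with a Myb-like domain, measured 6.91, 7.33 and 6.40 against 5.13, 5.51 and 5.19 (1.60, SE 0.24, limma adjusted p = 0.7). Ptpn12, a tyrosine phosphatase of the PEST type, measured 8.11, 8.44 and 8.88 against 7.47, 7.08 and 6.86 (1.34, SE 0.24). Every array of these genes kept to its side. Pip5k1b, a lipid kinase, differed by 1.29, Fgl2, a fibrinogen-like protein of immune cells, by 1.17, the carboxylesterase gene Ces2g by 1.13 and the desmosome gene Dsp by 1.02. Pcp4l1 was among the 5 genes of lowest p on this side, with 7.38, 7.06 and 6.96 in the knockout and 6.24, 6.35 and 6.30 in the wild type (0.84, SE 0.13, limma adjusted p = 0.7).

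MicroRNA genes were chosen for naming after their values were seen. Of 4 probe sets of the polycistronic miR-17 to miR-92 cluster, whose microRNAs are known to be induced by MYC and to favour proliferation, those of Mir17 and Mir18 were higher in the knockout without overlap. The mature sequences of the 4 members are shown to set their seeds beside their values, from RefSeq (GRCm38.p6, chromosome 14, plus strand), 5′ to 3′ with the seed, bases 2 to 8, in capitals.
miR-17-5p: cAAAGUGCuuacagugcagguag
miR-20a-5p: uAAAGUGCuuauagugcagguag
miR-18a-5p: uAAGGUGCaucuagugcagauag
miR-19a-3p: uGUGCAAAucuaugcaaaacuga
The first 2 share the seed AAAGUGC, while the seed of miR-18a-5p is AAGGUGC and that of miR-19a-3p is GUGCAAA. Mir17 measured 7.48, 6.91 and 7.12 in the knockout and 6.06, 6.36 and 6.24 in the wild type (0.95, SE 0.17, limma adjusted p = 0.781). Mir18 measured 7.15, 6.80 and 6.88 against 6.04, 5.81 and 5.83 (1.05, SE 0.13, limma adjusted p = 0.323). Mir20a, with the seed of miR-17, measured 5.40, 5.46 and 6.18 against 5.59, 4.81 and 4.69, and its groups overlapped (0.65, SE 0.31). Mir19a lay below the dim limit in all 6 arrays. So the probe sets of Mir17 and Mir18, which lay without overlap, carry different seeds, and of the pair with the shared seed Mir17 lay without overlap and Mir20a did not. Over all 237 microRNA genes tested, the arrays did not overlap for 16 that were higher (6.75%, against 5.83% of all genes) and 10 that were lower (4.22%, against 3.67%), with a median of 0.03, and total RNA labelled along whole transcripts does not tell the primary transcript from the mature microRNA.

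AMPK's own pathway showed small differences at the level of transcripts. Of 29 tested upstream kinases, substrates and partners, 18 had the higher and 11 the lower mean, 2 were higher (6.9%) and 1 lower (3.45%) without overlap, near the shares of all genes, and the median was 0.05, with single differences between -0.18 and 0.31. Acaca, the acetyl-CoA carboxylase that AMPK inhibits by phosphorylation, measured 6.39, 6.65 and 6.22 in the knockout and 6.21, 6.20 and 6.01 in the wild type (0.28, SE 0.14). Strada, the pseudokinase partner of LKB1, measured 6.73, 6.74 and 6.75 against 6.85, 6.79 and 7.11 (-0.18, SE 0.11). Txnip, an inhibitor of glucose uptake that AMPK marks for degradation, measured 9.57, 9.44 and 9.71 against 9.31, 9.37 and 9.33 (0.24, SE 0.10). Of 27 genes of mTORC1 and its regulators 15 were higher and 12 lower, with a median of 0.01. Among them the translation repressor gene Eif4ebp1 measured 7.97, 8.10 and 8.45 against 7.69, 7.75 and 7.74 (0.45, SE 0.14). Of 34 autophagy and lysosome genes 17 were higher and 17 lower, with a median of 0.0. Without overlap 1 was higher (2.94% against 5.83% of all genes) and 2 were lower (5.88% against 3.67%).

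Genes of glucose use leaned to the lower side. Of 25 tested genes of glucose transport and glycolysis 18 had the lower mean in the knockout, and the median was -0.07. Without overlap 3 were lower, or 12% against 3.67% of all genes, and 1 was higher, or 4% against 5.83%. Slc2a6, a hexose transporter, measured 5.92, 5.75 and 6.04 in the knockout and 6.22, 6.39 and 6.58 in the wild type (-0.50, SE 0.13). Pfkl, the liver-type phosphofructokinase, measured 6.64, 6.68 and 6.52 against 6.80, 7.06 and 7.01 (-0.34, SE 0.11), and Gapdh differed by -0.17. The triose phosphate isomerase gene Tpi1 measured 9.17, 9.16 and 8.65 against 9.70, 9.80 and 9.09, with knockout arrays 1 and 2 just above wild-type array 3 (-0.54, SE 0.24). Slc2a1, which encodes the widely expressed glucose transporter GLUT1, overlapped, with 6.66, 6.88 and 7.66 in the knockout and 6.91, 7.92 and 7.56 in the wild type (-0.40, SE 0.34). Without wild-type array 2 the median of the list was -0.01.

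Genes that supply NADPH or oxidise pyruvate and fat in the mitochondria more often had the higher mean. For pyruvate and fat oxidation this depended on single arrays. Of 18 tested genes of the pentose phosphate pathway and NADPH supply 13 were higher, 2 of them without overlap (11.1% against 5.83%), and the median was 0.18. Taldo1, the transaldolase of the pentose phosphate pathway, measured 9.31, 9.02 and 9.03 in the knockout and 8.79, 8.71 and 8.89 in the wild type (0.32, SE 0.12). Idh2, the mitochondrial NADP-dependent isocitrate dehydrogenase, measured 8.58, 9.70 and 8.43 against 7.61, 8.38 and 8.31, highest in knockout array 2, and its difference of 0.80 (SE 0.38) was 0.40 without that array. Of 29 genes of the tricarboxylic acid cycle and pyruvate entry 21 were higher, 2 without overlap, or 6.9%, near the 5.83% of all genes. Their median of 0.07 turned to -0.04 without knockout array 2 and to -0.02 without wild-type array 1. In whole leukemia 22 of these 29 genes were lower. Mpc1, a subunit of the mitochondrial pyruvate carrier, measured 7.81, 8.56 and 7.51 against 6.27, 7.46 and 7.23 (0.97, SE 0.38), and was lowest in wild-type array 1, without which its difference was 0.62. Mdh2, malate dehydrogenase, differed by 0.51 and, without wild-type array 1, by 0.26.

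Of 24 genes of fatty acid oxidation 16 were higher, 3 without overlap (12.5% against 5.83% of all genes) and 0 lower without overlap, with a median of 0.09. Acads, the short-chain acyl-CoA dehydrogenase, had the smallest SE of these 3, at 7.43, 7.43 and 7.51 in the knockout and 7.01, 7.09 and 7.16 in the wild type (0.37, SE 0.09). Eci2, an enoyl-CoA isomerase, differed by 0.62 (SE 0.24) and the dienoyl-CoA reductase gene Decr1 by 0.21. Without knockout array 2 the split was 12 to 12 with a median of 0.0. Of 29 genes of fatty acid and cholesterol synthesis 17 were higher, 3 without overlap (10.3% against 5.83%) and 1 lower without overlap (3.45%). Scap, the escort of the sterol-sensing factor SREBP, measured 7.81, 8.40 and 7.60 against 7.0, 7.43 and 7.56 (0.61, SE 0.24; 0.37 without knockout array 2), and the fatty acid elongase gene Elovl5 measured 8.95, 10.04 and 9.03 against 8.49, 8.76 and 8.83 (0.65, SE 0.30; 0.30 without it). The 39 genes of oxidative phosphorylation split into 19 higher and 20 lower, with a range of -0.24 to 0.29, and 0 lay without overlap in either direction.

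Of 30 tested antioxidant and glutathione genes, 23 had the higher mean in the knockout. Of the 30, 5 were higher without overlap, or 16.7% against 5.83% of all genes, and 0 were lower without overlap, with a median of 0.14. Txnrd1, which encodes cytosolic thioredoxin reductase, measured 6.92, 7.35 and 7.0 in the knockout and 6.15, 6.55 and 6.54 in the wild type (0.68, SE 0.17, limma adjusted p = 0.994). Gclm, the modifier subunit of the enzyme that starts glutathione synthesis, measured 7.10, 7.48 and 6.57 against 6.20, 6.39 and 6.57, with knockout array 3 level with wild-type array 3 (0.66, SE 0.24). Gstp1, a glutathione transferase, measured 10.72, 10.70 and 10.62 against 10.15, 10.59 and 10.39, a difference of 0.30 among the brighter genes of the list. Without knockout array 2 the counts were 20 higher and 10 lower with a median of 0.10, and without wild-type array 1 the median was 0.08.

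MLL-AF9 target genes had lower values in knockout L-GMP for 17 of 23 tested members. Of the 23, 4 were lower without overlap, or 17.4% against 3.67% of all genes, and 0 were higher without overlap, and the median was -0.26. The list mean was 7.02, 6.82 and 7.0 in the knockout and 7.20, 7.48 and 7.10 in the wild type, so the groups were apart, by 0.08 at their nearest arrays, as were those of 8 of the 45 lists in all. Mef2c, a transcription factor needed for leukemia stem cells in MLL leukemia, measured 6.24, 7.95 and 5.61 in the knockout and 8.50, 8.58 and 8.35 in the wild type (-1.88, SE 0.56, limma adjusted p = 0.994). The wild-type arrays lay within 0.23 of each other while the knockout arrays spread over 2.34, and without knockout array 2 the difference was -2.55. The gap between the list means rested on this gene. Without Mef2c the list mean of knockout array 1 lay above that of wild-type array 3, so the groups overlapped. Tcf4, an E protein, measured 6.96, 6.82 and 6.41 against 7.19, 8.09 and 7.47 (-0.86, SE 0.26).

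Within the HOXA cluster, the core of the MLL-AF9 programme, Hoxa5 measured 5.95, 5.18 and 5.69 in the knockout and 6.33, 6.72 and 6.11 in the wild type (-0.78, SE 0.24). Hoxa10 measured 5.34, 5.08 and 5.55 against 5.75, 6.20 and 5.61 (-0.53, SE 0.19). Hoxa9 measured 7.83, 6.58 and 7.34 against 8.16, 8.30 and 7.58 and overlapped, since knockout array 1 lay above wild-type array 3 (-0.76, SE 0.34). In each of these 3 genes knockout array 2 was the lowest knockout array and wild-type array 2 the highest wild-type array, and without knockout array 2 the Hoxa9 difference was -0.42. For the whole list the median was -0.15 without knockout array 2 and -0.20 without wild-type array 2. The 25 tested cofactors of MLL fusions split into 14 higher and 11 lower, with Aff4, a scaffold of the super elongation complex, at 7.57, 8.12 and 7.59 against 7.24, 7.38 and 7.33 (0.44, SE 0.17).

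**Figure D2:**
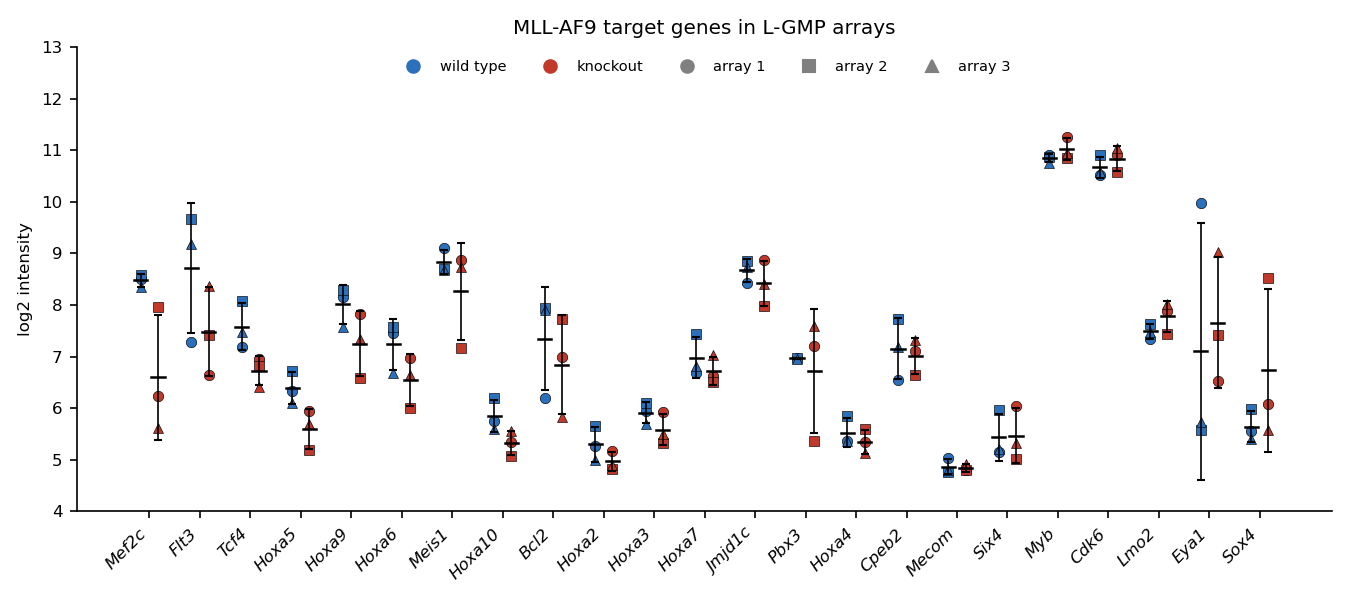
Log2 intensity of the 23 tested MLL-AF9 target genes by array, ordered by difference from most negative to most positive; symbols are single arrays, long bars group means and error bars 1 SD of 3 arrays. Mef2c, Tcf4, Hoxa5 and Hoxa10 show no overlap between genotypes, while Eya1 and Flt3 vary by more within a genotype than between.

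Among other hematopoietic transcription factors 27 of 39 were higher, 4 without overlap (10.3% against 5.83% of all genes) and 1 lower without overlap (2.56%), with a median of 0.11. Bcl11a, a repressor active in progenitors and B cells, measured 6.40, 6.95 and 6.15 in the knockout and 5.05, 5.41 and 5.59 in the wild type (1.15, SE 0.24), and its other probe set differed by 0.65. Hhex, a homeobox factor of early progenitors, measured 7.24, 7.22 and 7.57 against 6.92, 6.99 and 6.86 (0.42, SE 0.13). Runx1, a master regulator of blood formation, measured 7.92, 7.73 and 8.27 against 7.55, 7.60 and 7.67 (0.37, SE 0.15). The groups of these 3 genes did not overlap.

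Genes of granulocyte-macrophage progenitors and of the primary granules formed at the promyelocyte stage were higher in 19 of 26 tested members. Of the 26, 6 were higher without overlap, or 23.1% against 5.83% of all genes, and 0 were lower without overlap, with a median of 0.33. The list mean was 9.20, 9.46 and 9.02 in the knockout and 8.90, 8.54 and 8.94 in the wild type, again apart by 0.08 at the nearest arrays. In sorted bulk RNA, more cells of a stage and more RNA per cell cannot be told apart. Prss57, a neutrophil serine protease that counts in the 6, was already among the 12 genes of largest higher value, chosen for lack of overlap. It measured 8.69, 9.24 and 8.41 in the knockout and 6.87, 7.40 and 7.53 in the wild type (1.51, SE 0.26, limma adjusted p = 0.781). Elane, neutrophil elastase, measured 12.18, 12.19 and 12.24 against 12.02, 11.53 and 11.70 (0.46, SE 0.14), near the top of the scale, with the knockout arrays within 0.06 of each other. Cd63, a granule membrane tetraspanin, measured 10.23, 10.35 and 10.01 against 9.81, 9.01 and 9.29 (0.83, SE 0.22). Csf3r, the receptor of G-CSF, measured 8.22, 8.02 and 7.75 against 7.39, 6.93 and 7.52 (0.72, SE 0.19).

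Nkg7, a granule protein gene, measured 7.37, 10.82 and 6.66 in the knockout and 5.90, 5.71 and 5.75 in the wild type, and without knockout array 2 its difference of 2.50 (SE 1.01) was 1.23. In the same array the eosinophil granule protein gene Prg2 measured 11.92, against 8.85 and 5.57 in the other knockout arrays and 5.59 to 6.36 in the wild type. Eosinophil, basophil and mast cell genes were higher in 13 of 18 tested members (11 others were dim), with a median of 0.25, and without knockout array 2 in 9 of 18 with a median of 0.01. The progenitor and granule list without that array had 20 of 26 higher and a median of 0.28, and without wild-type array 2 it had 19 of 26 and 0.20.

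**Figure D3:**
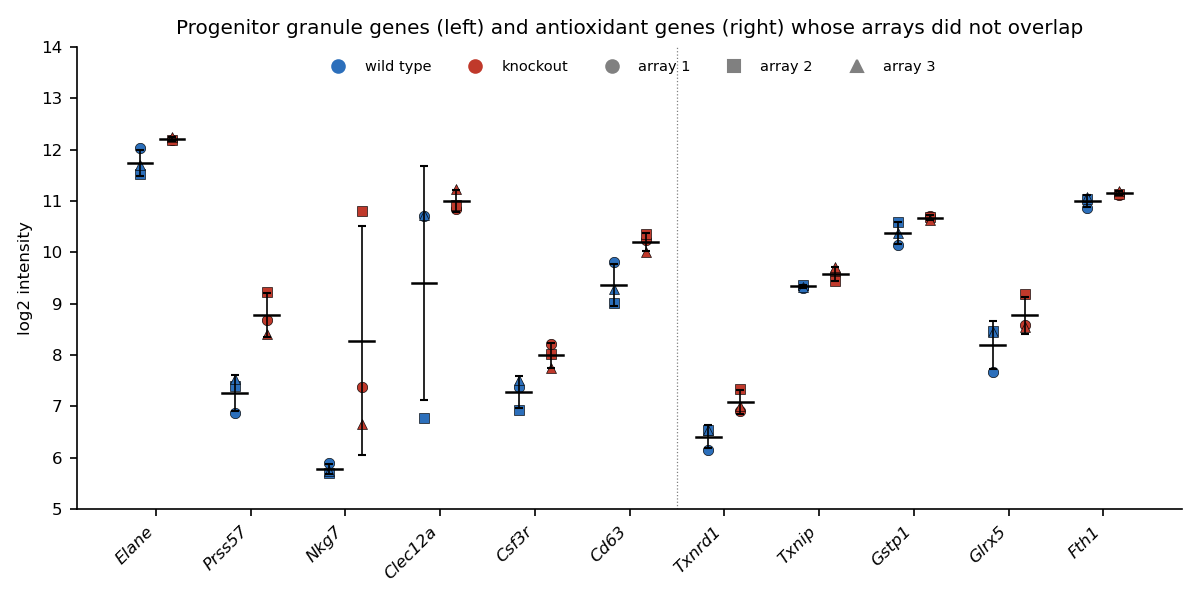
Log2 intensity by array of the 6 progenitor and primary granule genes and the 5 antioxidant genes whose genotypes did not overlap; symbols are single arrays, long bars group means and error bars 1 SD of 3 arrays. The knockout arrays of Elane lie at 12.18 to 12.24 above a wild-type maximum of 12.02, and Nkg7 is highest in knockout array 2 at 10.82.

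Monocyte and macrophage genes had lower values in 31 of 40 tested members. Of the 40, 4 were lower without overlap, or 10% against 3.67% of all genes, and 0 were higher without overlap, with a median of -0.22. Mpeg1, which encodes the pore-forming protein perforin-2 of macrophages, measured 7.12, 6.93 and 7.02 in the knockout and 7.36, 8.11 and 8.45 in the wild type (-0.95, SE 0.27). Cd302, a C-type lectin, measured 6.36, 5.93 and 6.12 against 6.56, 6.50 and 6.81 (-0.48, SE 0.15). Ms4a6c, a membrane protein gene of monocytes, measured 8.27, 8.13 and 7.84 against 8.27, 9.43 and 9.13, with knockout array 1 level with wild-type array 1 (-0.86, SE 0.30). The median was -0.09 without knockout array 2 and -0.11 without wild-type array 3, so part of the shift went with those arrays. Other lineages gave smaller or mixed values. Neutrophil maturation genes split into 11 higher and 14 lower of 25, and wild-type array 3 had the highest mean (8.68 against 7.04 to 8.09). Erythroid genes were higher in 12 of 14 tested, 4 without overlap (28.6% against 5.83% of all genes), and Klf1, an erythroid transcription factor, was lower without overlap (-0.05). The erythroid list mean was 5.38, 5.92 and 5.53 in the knockout and 5.35, 5.32 and 5.38 in the wild type, with the globin genes unmatched. Knockout array 2 was the highest, with the carbonic anhydrase genes Car1 and Car2 at 7.08 and 7.17, and without it the median of 0.17 was 0.07. Megakaryocyte genes were higher in 15 of 18 with a median of 0.11, while B cell, T and NK cell, and dendritic cell genes had medians of 0.08, 0.01 and -0.05. Stromal and endothelial genes were higher in 11 of 15 with list means of 5.47 to 5.67 over the 6 arrays. The part of these other cell types in the differences above was not tested.

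Cell cycle genes had lower values in the knockout, and the shift went with knockout array 3. All 38 tested G2/M genes had the lower mean in the knockout with a median of -0.41. Only Cdc25b, a phosphatase that activates cyclin-dependent kinases, lay without overlap (-0.27, SE 0.11). That is 2.63% of the list, against 3.67% of all genes. Mki67, the proliferation marker Ki-67, measured 9.18, 9.46 and 7.83 in the knockout and 9.32, 9.57 and 9.75 in the wild type (-0.72, SE 0.41), and Kif2c, a kinesin of the mitotic centromere, measured 6.72, 7.01 and 5.30 against 6.93, 7.42 and 7.09 (-0.81, SE 0.44). Without knockout array 3 the G2/M genes split into 20 higher and 18 lower with a median of 0.02. Of 35 G1/S and replication genes 28 were lower (median -0.15), and without that array 11 were lower (median 0.06). Of 32 DNA repair genes 24 were lower (median -0.20), and without it 15 were lower (median 0.01). Ccne1, which encodes cyclin E1, was the G1/S gene that did not overlap (2.86% of the list against 3.67% of all genes). It measured 6.70, 6.35 and 6.67 against 7.13, 7.05 and 6.72 (-0.39, SE 0.16), and here knockout array 2 was the lowest.

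Cohesin and condensin genes, which hold and compact chromosomes, were lower in 17 of 20 tested, with a median of -0.26 that was -0.05 without knockout array 3. Of the 20, 3 were lower without overlap, or 15% against 3.67% of all genes, 1 of them Stag3, already the leading gene. The others were Smc4, a condensin subunit, at 9.54, 9.76 and 8.86 in the knockout and 9.88, 10.22 and 10.08 in the wild type (-0.67, SE 0.24), and Pds5b, a cohesin regulator, at 7.66, 7.55 and 6.61 against 7.85, 8.05 and 7.88 (-0.65, SE 0.28). Both were lowest in knockout array 3, whereas Stag3 was highest there among the knockout arrays. Of the 44 germline and meiosis genes on the array 17 were dim, and of the 27 tested 16 were lower, 3 without overlap (11.1% against 3.67% of all genes), and 1 was higher without overlap, with a median of -0.03. The list mean was 5.56, 5.43 and 5.49 in the knockout and 5.79, 5.83 and 5.68 in the wild type, apart by 0.12, and without Stag3 it was 5.55, 5.42 and 5.46 against 5.68, 5.70 and 5.59, still apart. Cox6b2, the testis form of a cytochrome c oxidase subunit, measured 9.52, 8.42 and 8.70 against 9.74, 9.81 and 9.64 (-0.85, SE 0.28), with knockout array 1 nearest the wild-type arrays. Hormad2, a meiotic chromosome axis gene, was split within the wild type, at 7.28, 7.52 and 4.88, against 5.12, 4.78 and 5.12 in the knockout (-1.55, SE 0.67).

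Interferon response genes were lower in 22 of 29 tested members with a median of -0.33, and 1 was lower without overlap (3.45% against 3.67% of all genes). Mx2, an antiviral GTPase, measured 4.67, 4.80 and 4.81 in the knockout and 5.0, 7.08 and 4.89 in the wild type, so the gap rests on wild-type array 2 (-0.90, SE 0.56). Oas3, an antiviral sensor, measured 7.79 in that array and 5.22 to 5.66 in the other 5. Without wild-type array 2 the list turned round, with 20 of 29 higher, 10 of them without overlap, and a median of 0.23. Without that array 1943 of all 17760 genes were higher without overlap, since 3 arrays against 2 separate more often. Immediate early genes were higher in 18 of 22 with a median of 0.15 and 0 without overlap in either direction, and without the same array 12 of 22 were higher with a median of 0.01. The transcription factor gene Jun measured 8.90, 8.41 and 8.12 in the knockout and 8.68, 6.08 and 8.10 in the wild type (0.85, SE 0.65).

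Ribosome biogenesis and MYC target genes split into 14 higher and 14 lower, with 4 higher without overlap (14.3% against 5.83% of all genes) and 0 lower, among them Pes1, a ribosome assembly factor, at 8.75, 9.01 and 9.06 in the knockout and 8.42, 8.62 and 8.17 in the wild type (0.54, SE 0.15), and the spermidine synthase gene Srm (0.38, SE 0.12). Unfolded protein response and ATF4 genes were higher in 18 of 32, with the endoplasmic reticulum chaperone partner Sdf2l1 at 8.67, 8.55 and 8.23 against 7.84, 8.07 and 8.12 (0.47, SE 0.15). Hypoxia targets were lower in 15 of 23, with the collagen prolyl hydroxylase gene P4ha1 at 5.84, 6.16 and 6.05 against 6.18, 6.79 and 6.44 (-0.45, SE 0.18), while Vegfa, the endothelial growth factor gene of the same list, measured 8.20, 7.51 and 8.59 against 7.79, 6.87 and 6.70 and differed the other way (0.98, SE 0.37). The 20 genes of the p53 pathway and the 14 of the BCL2 family had medians of -0.05 and 0.01, and 0 of either lay without overlap. Homing and niche adhesion genes were lower in 18 of 31 with a median of -0.04, and stem and multipotent progenitor genes split into 8 and 8.

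**Figure D4:**
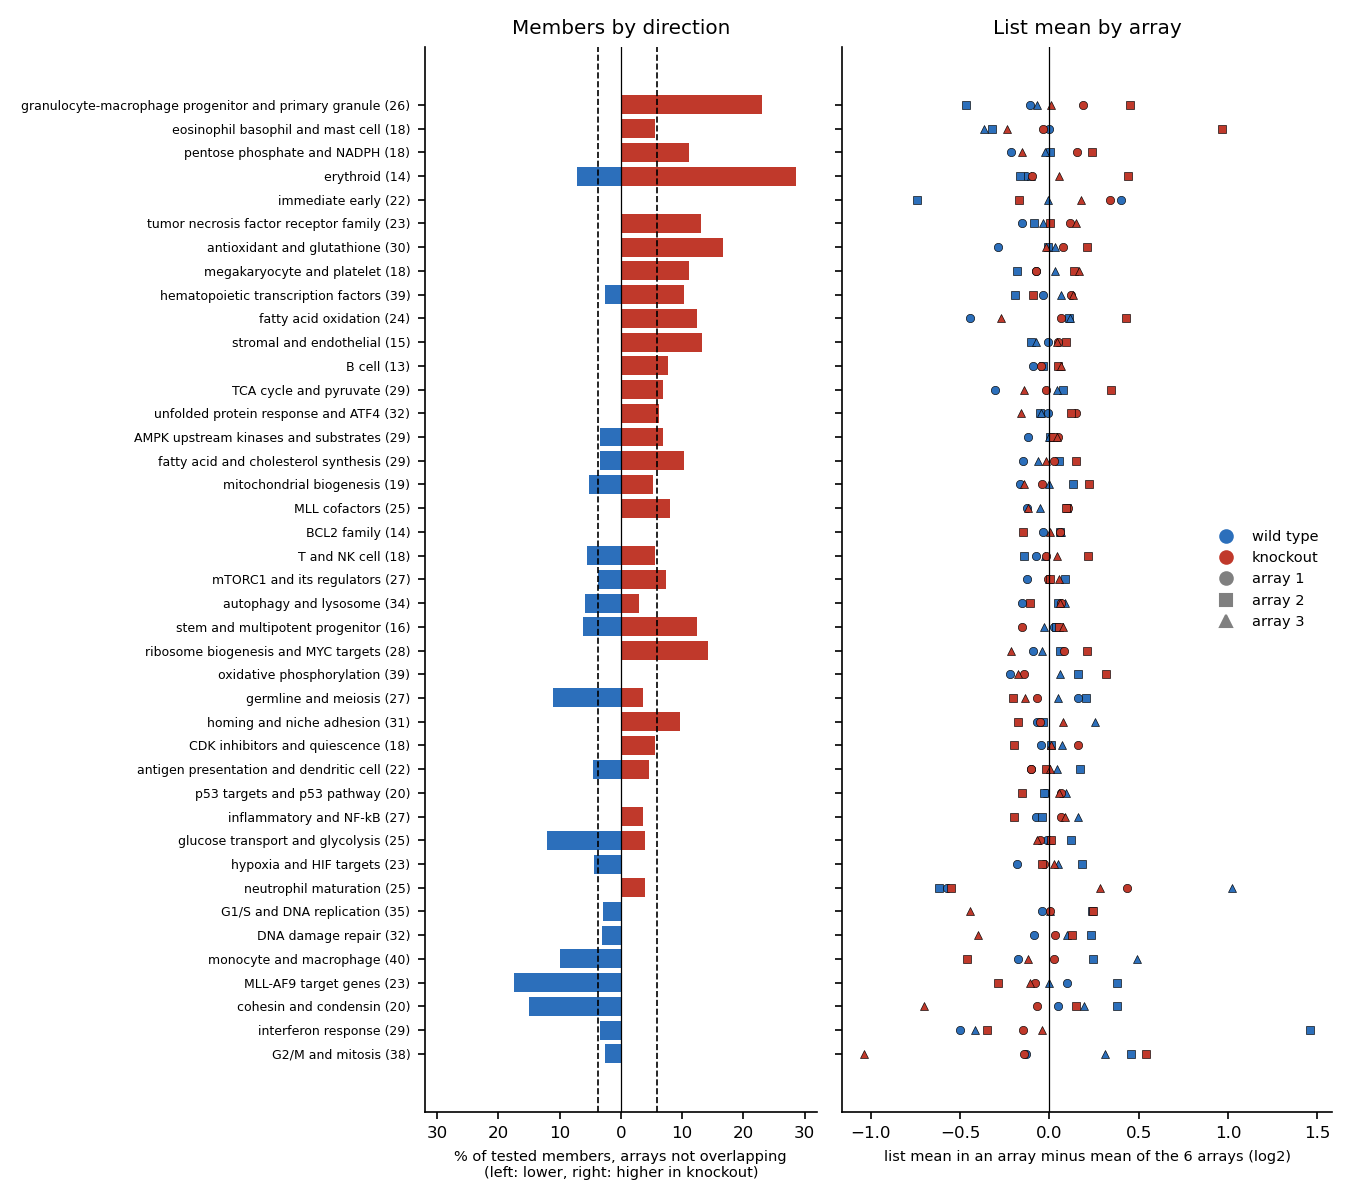
Gene lists in L-GMP, ordered by median difference, with the number of tested members in brackets. Left, the percentage of members whose arrays did not overlap, lower to the left and higher to the right, with dashed lines at 3.67% and 5.83% for all genes; right, the list mean in each array minus the mean of the 6 arrays. Knockout array 3 lies far below the rest for G2/M genes and wild-type array 2 far above for interferon genes.

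The same contrast in whole leukemia was read from the 6 arrays that the L-GMP comparison does not use. The labels do not say whether both populations were sorted from the same mice. Same-numbered L-GMP and whole arrays of a genotype correlated at 0.09 to 0.62 in their deviations from the group means, so the populations are not taken as independent, and the counts that follow are a description. Of 26 named genes, the 12 of largest value and the 5 of lowest p on either side, 25 differed in the same direction in whole leukemia. Their arrays did not overlap there for 8 of the 13 lower and 3 of the 13 higher genes, against 5.72% of all genes lower and 5.45% higher. At an unadjusted limma p under 0.05 there were 19, 11 of the lower genes and 8 of the higher ones, against 3.54% of all genes lower and 2.38% higher, and the lowest adjusted p was 0.241. The 13 lower genes include Prkaa1, a subunit gene of AMPK itself, which counts in each of these numbers (-0.98 in whole leukemia, without overlap). Stag3 measured 5.28, 5.77 and 6.13 in knockout and 8.33, 8.74 and 7.61 in wild-type whole leukemia, a difference of -2.50. Zc3h12c measured 5.03, 6.02 and 5.60 against 8.43, 8.50 and 7.20, a difference of -2.49 that was larger than in L-GMP. Dpep2 differed by -2.24, Tns1 by -1.37, Msantd3 by 1.15, Pip5k1b by 1.24 and Fgl2 by 0.94, each without overlap.

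Kdm5b and Cyfip2 overlapped between genotypes in whole leukemia. Kdm5b measured 6.73, 7.45 and 7.18 in the knockout and 5.71, 6.13 and 7.14 in the wild type, where wild-type array 3 overlapped the knockout (0.80, SE 0.31). Cyfip2 measured 8.13, 9.01 and 8.98 against 6.97, 7.49 and 8.85, overlapping through the same array (0.93, SE 0.40). Mir17 measured 7.76, 5.98 and 5.35 in knockout and 5.87, 5.98 and 4.95 in wild-type whole leukemia, a difference of 0.76 with overlapping groups. Mir18 measured 7.36, 5.78 and 5.04 against 6.50, 5.58 and 4.84 and also overlapped (0.42). Both were highest in knockout whole array 1. Whether an effect differed between the populations was tested with the interaction term over all 12 arrays. It passed for 0 of 17760 genes (limma, lowest adjusted p = 1), and 362 genes had an unadjusted p under 0.05 (2.04%). Of 102 genes followed by name over the text, 6 were among these 362, each at a limma interaction adjusted p of 1. Of the 26 leading genes this held for Pcp4l1 alone. It was lower in knockout whole leukemia, at 5.90, 5.89 and 6.12 against 7.05, 6.50 and 6.13, a difference of -0.59 beside 0.84 in L-GMP. Acads measured 6.87, 6.57 and 6.69 in knockout and 7.0, 7.13 and 6.99 in wild-type whole leukemia, so it was lower there without overlap (-0.33, SE 0.09) and higher in L-GMP (0.37). Gstp1 went the same way, at -0.52 in whole leukemia without overlap and 0.30 in L-GMP. Cd34 measured 5.54, 6.65 and 7.05 against 8.48, 9.38 and 8.35, a difference of -2.32 (SE 0.37) without overlap, beside -0.09 in L-GMP, where the sort had selected CD34+ cells of both genotypes. The remaining pair was Smc4, at 0.26 beside -0.67, and Txnrd1, at 0.13 beside 0.68, both with overlapping arrays in whole leukemia.

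**Figure D5:**
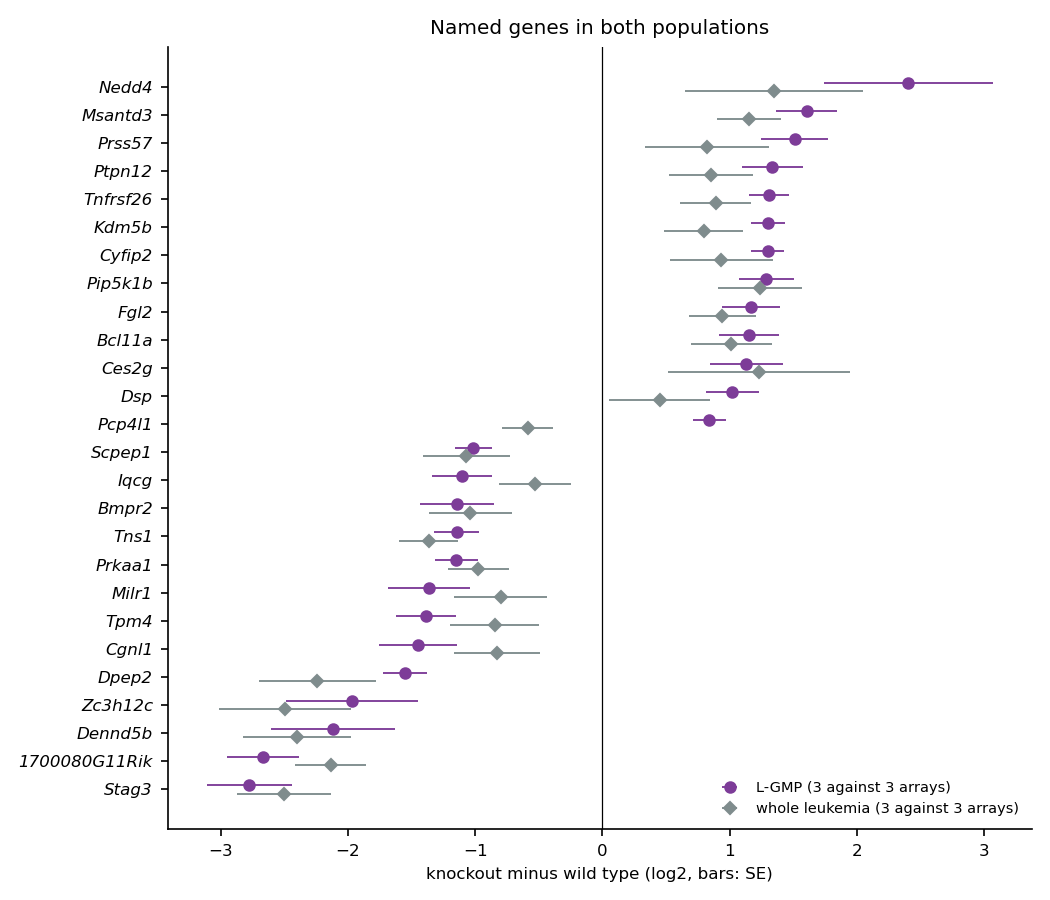
Knockout minus wild-type difference (log2) of the 26 named genes in L-GMP (circles) and in whole leukemia (diamonds), with bars of 1 SE from the fit. All but Pcp4l1 lie on the same side of 0 in both populations.

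Over all genes, the L-GMP and whole leukemia differences correlated at Pearson's r = 0.448 and Spearman's rho = 0.29, across genes within these arrays, which are not independent replicates. The arrays did not overlap in both populations for 107 genes that were higher, which is 10.3% of the L-GMP and 11.1% of the whole leukemia genes of that kind. For genes that were lower the number was 111, or 17% and 10.9%, and 35 genes went opposite ways. Among the lists, 19 of 23 MLL-AF9 target genes were lower in whole leukemia, 7 without overlap, with a median of -0.39. Of 40 monocyte genes 34 were lower there, 14 without overlap, with a median of -0.41. Over all genes 5.72% were lower without overlap in whole leukemia. Knockout whole array 2 was the lowest knockout array for Hoxa9 at 5.63, against 7.85 and 7.48, and for Myb at 8.87, against 11.08 and 10.81. For Mef2c it was the highest, at 7.19 against 5.58 and 5.70. How far the MLL-AF9 target list rests on this array was not tested. Progenitor and granule genes were higher in 15 of 26 there with a median of 0.13, and antioxidant genes in 17 of 30 with one of 0.12, below the 0.33 and 0.14 of L-GMP. Elane measured 12.32, 10.29 and 12.12 in knockout whole leukemia, against 11.47 to 11.72 in the wild type. Ctsg, of the same list, measured 12.01, 9.81 and 11.75 against 11.19 to 11.56. Knockout whole array 2 was thus the lowest for both, while for Csf3r it was the highest at 9.51. How far the list value rests on that array was not tested. Neutrophil maturation genes, mixed in L-GMP, were higher in 22 of 25 in whole leukemia. Ltf, of that list, measured 7.65, 11.65 and 7.69 in knockout whole arrays 1 to 3, and Cxcr2 measured 6.62, 11.30 and 10.27. Array 2 was the highest for these genes but not for Olfm4, at 5.76, 7.62 and 10.43. Of the tested erythroid genes 0 had the lower mean in knockout whole leukemia, and there too array 2 stood out. Slc4a1 measured 5.56, 11.58 and 6.83 in knockout whole arrays 1 to 3, against 5.66 to 5.72 in the wild type. Car2 measured 4.70, 11.35 and 6.96, against 4.49 to 4.85. These differences between the populations were not tested as lists.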

How the data were processed

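The authors deposited linear intensity values per probe set, per the file headers, from 17.96 to 8712 over 33794 probe sets in the 6 L-GMP arrays, with array medians of 36.9 to 39.3. How they were background-corrected and normalized, and with which software, is not given in the sources used here. Values were taken to log2 with no pseudocount. Of the probe sets, 23521 had 1 gene symbol, 1814 several and 8459 none listed. Of the 22180 gene identifiers 99.2% matched RefSeq (GRCm38.p6). The single-symbol probe set of highest mean stood for a gene, and the 4420 genes in the lowest 25% of probe sets, under a mean of 4.71, were dropped as dim. The 6 arrays were fitted with limma 3.58.1 in R 4.3.3 (lmFit, eBayes, 4 residual and 2.53 prior degrees of freedom), adjusted by Benjamini-Hochberg over 17760 genes and called under 0.05; the interaction used all 12 arrays. The 6488 probe sets above the dim limit with several or no symbols were tested apart, with 0 called (limma, lowest adjusted p = 0.451; 302 at an unadjusted p under 0.05). Scripts were tested on simulated data. Named were Prkaa1, Prkaa2, the 12 largest differences and 5 lowest p in each direction (for the former, no overlap and p under 0.01), up to 3 members of lowest p per list, and gate, sex-linked, neighbouring and lineage genes; microRNAs, Slc2a1, Gapdh, Hormad2, Hoxa9 and Hoxa10 and the other list genes outside that rule were chosen after their values were seen. The 45 gene lists held 1128 genes, 1025 of them matched and 967 tested. Members and lists were chosen with earlier results of these data known.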

Additional observations from a re-analysis of the deposited data

How the results depend on the processing

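The count of genes called in knockout against wild-type L-GMP was 0 under each alternative but 2. With the spread taken from all 12 arrays it was 1, namely 1700080G11Rik (limma adjusted p = 0.0312). The lowest adjusted p by limma was 0.535 with no filter on dim genes, 0.137 with the lowest 50% of probe sets left out, 0.281 with the mean of a gene's probe sets, 0.39 with quantile normalization, 0.0956 with a trended and robust variance and 0.0567 with array weights. The replicate block gave 0 called genes and a Prkaa1 difference of -1.15 (SE 0.11, limma adjusted p = 0.801). Same-numbered arrays of the 2 genotypes correlated at -0.01, 0.19 and 0.00 in their deviations from the group means, so the numbers were not read as pairs.

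Leaving out each array in turn gave 0 called genes (lowest limma adjusted p 0.19 to 0.999) and Prkaa1 differences from -1.30 to -1.06; with array weights it was -0.95. The interaction count was 0 under all 10 alternatives, 5 choices added after seeing the data. One of them took same-numbered L-GMP and whole arrays of a genotype as a replicate block (limma lowest adjusted p = 0.994, 567 genes at an unadjusted p under 0.05). In deviations from the group means these arrays correlated at 0.13, 0.09 and 0.44 in the knockout and 0.36, 0.62 and 0.30 in the wild type, so 1 pair fell short of 0.1. As a random block, also added after seeing the data, they gave 1 called gene in L-GMP, again 1700080G11Rik (limma adjusted p = 0.03). Of 1411 pairs of a named gene and a setting, 1401 kept direction and side of the threshold. The call of 1700080G11Rik above was 1 exception, and the direction of Fcgr2b turned with array weights (0.16). The rest came from leaving out arrays, where the difference changed sign for 5 genes, with ranges of -0.17 to 0.094 for Fcgr2b, -0.21 to 0.051 for Cd34, -0.084 to 0.18 for Fcgr3, -0.067 to 0.063 for Prkaa2 and -0.96 to 0.21 for Itgam. The number of arrays limits precision throughout.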
